A study of Mus musculus with 2 samples.

Results

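The genes described here are the 38 members of a module named for protein folding in the endoplasmic reticulum (ER) and for the unfolded protein response. They were taken by gene symbol from a list of the pathway that was chosen with earlier results of these data known, and all 38 were found among the 31053 genes counted. Their transcripts were followed across 12 classes of mouse ileal crypt cells. The mice carried Atoh1CreER-T2 and the R26RTom reporter, so the Cre was driven from Atoh1, the gene for the transcription factor of the intestinal secretory lineage. They received 2 doses of tamoxifen at 1 mg/mL, 24 h apart, and crypts were taken 12 h after the second. Live Tom+ cells were sorted from EDTA-released, TrypLE-dissociated crypts and profiled as 2 droplet libraries (10x Genomics 3′), both of a single group labelled WT. No group without tamoxifen or without the alleles was compared, so every comparison below is between classes of cells from the same 2 libraries. The age of the mice, and whether the libraries came from separate animals, are not given in the sources used here. The p-values rest only on the scatter of class sums left after a shared difference between the 2 libraries is removed. That scatter was estimated over all 12 classes and may be technical.

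Secretory cells push large amounts of protein through the ER, where chaperones such as BiP hold nascent chains, the calnexin and calreticulin cycle checks their sugars, and disulfide isomerases pair their cysteines. Chains that fail to fold are drawn back to the cytosol and degraded, a route called ER-associated degradation. Unfolded protein is sensed by IRE1, PERK and ATF6, which act through the factors XBP1, ATF4 and cleaved ATF6 to raise the folding and degradation genes. The gut is unusual in having a second, epithelial IRE1 (Ern2) beside the ubiquitous one (Ern1), and Paneth and goblet cells are known to depend on XBP1. By role, the members comprise 10 chaperones and co-chaperones, 3 genes of the calnexin cycle, 7 disulfide isomerases and relatives, 9 genes of ER-associated degradation, 4 sensors, and 5 factors and feedback genes.

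The class of each of the 11562 cells was taken from the deposited cell table. Each class was checked against its markers by UMI (unique molecular identifier) counts, given here for replicate 1 and then replicate 2, the order used throughout. The stem cell class ISC held 7114 and 8163 UMIs of Olfm4, the secretory progenitor class SEC-PRO 3544 and 2372 of the cycling gene Mki67, the precursor class EEC-PRE 249 and 178 of the enteroendocrine factor Neurog3, and TUFT 793 and 376 of the tuft gene Dclk1. Mki67 does not tell SEC-PRO from cycling stem cells, since ISC held 1284 and 3195 UMIs of it. Atoh1 was not particular to SEC-PRO either, with 570 and 360 UMIs there, 502 and 313 in GP and 2010 and 593 in the larger class GOBLET-PRE. Of the hormone cells, EC held 181 and 157 UMIs of the serotonin enzyme Tph1 and NON-EC 4 and 1. The labels do not spell out GP, a class with goblet markers at a summed 58901 and 66524 CPM (counts scaled to 1000000 UMIs per class). The same markers summed to 42542 and 42955 CPM in SEC-PRO and 65321.5 and 75392 in PANETH-PRE, so they do not set GP apart. They reached 139763 and 136074 CPM in GOBLET-PRE and 358334 and 367729 in GOBLET. Paneth markers summed to 221662 and 209425 CPM in PANETH-PRE and 475424 and 516604 in PANETH. The enterocyte progenitor class ENTERO-PRO carried goblet markers at 55380.4 and 63406 CPM beside 15989.5 and 7896 of enterocyte markers, against 11044 and 18834 of goblet markers in ISC. Of 6 markers of plasma cells, another cell type rich in these genes, Jchain and Mzb1 had at most 1 UMI in any class of either library, and Igkc, Cd79a and Ighm at most 15, 5 and 4. Sdc1, which gut epithelium also makes, had up to 436 (ISC in replicate 2), and the 6 summed to at most 61.2 CPM.

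Replicate 1 held 5305 listed cells with 32656481 UMIs, and replicate 2 6257 cells with 27014983, and 12 barcodes occurred among the listed cells of both. Class sizes ran from 42 cells (EC and GOBLET in replicate 1) to 2318 (GOBLET-PRE in replicate 1). UMIs were summed per class and library, and levels are given as CPM after scaling by TMM factors, which set the bulk of abundant genes level between classes. This step matters for Paneth cells, where the 20 most abundant genes took 81.5% and 79% of all UMIs and the factors were 0.230 and 0.256, and to a lesser degree for GOBLET, where they took 53.8% and 52.4%. The other classes had factors from 0.850 to 1.33. Changes are log2 values with their standard errors from edgeR's quasi-likelihood test over 10994 genes with library as a block, called at a Benjamini-Hochberg adjusted p of 0.05. All adjusted p-values below come from that test. Of the 38 members, 36 passed the filter on low counts, while Derl3 and Trib3 did not. The classes had been assigned from the expression of the same cells, so a difference between classes is not independent of how they were drawn.

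The best known control element of this response, the ER stress response element, is a CCAAT box and a CCACG box with 9 bases between them, and it was looked for in RefSeq promoters of build GRCm38.p6 (250 bases before to 50 after the start, both strands). Of 33 members found in that promoter table, 9 held it (27.3%), against 37 of all 27025 genes with a promoter there (0.137%). These matches are shown because, of the motifs searched, this one had the largest share among the members beside its share in all genes. The promoter of Hspa5, the gene for BiP, is given over 160 bases at chr2:34771930-34772089 on the plus strand, with the match in capitals.
Hspa5: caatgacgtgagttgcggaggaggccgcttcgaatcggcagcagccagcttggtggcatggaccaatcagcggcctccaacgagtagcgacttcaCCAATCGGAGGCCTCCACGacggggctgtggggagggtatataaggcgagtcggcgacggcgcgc
For the other members each match is printed in capitals with 10 bases on either side, in the direction of the gene. It reads CCAAT first or, on the opposite strand, CGTGG first, and Hsp90b1 held both forms.
Hsp90b1 (chr10:86705628-86705666, gene on the minus strand): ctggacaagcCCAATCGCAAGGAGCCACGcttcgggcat
Hsp90b1 (chr10:86705523-86705561, gene on the minus strand): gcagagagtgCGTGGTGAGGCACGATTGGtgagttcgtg
Dnajc3 (chr14:118937817-118937855, gene on the plus strand): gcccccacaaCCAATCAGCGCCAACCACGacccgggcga
Creld2 (chr15:88819510-88819548, gene on the plus strand): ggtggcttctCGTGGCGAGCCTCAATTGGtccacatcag
Calr (chr8:84847065-84847103, gene on the minus strand): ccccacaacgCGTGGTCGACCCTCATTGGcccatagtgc
Canx (chr11:50325790-50325828, gene on the minus strand): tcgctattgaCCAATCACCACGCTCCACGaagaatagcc
Pdia6 (chr12:17266481-17266519, gene on the plus strand): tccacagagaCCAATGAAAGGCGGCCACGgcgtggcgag
Syvn1 (chr19:6046522-6046560, gene on the plus strand): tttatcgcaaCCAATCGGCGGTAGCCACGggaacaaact
Derl3 (chr10:75893232-75893270, gene on the plus strand): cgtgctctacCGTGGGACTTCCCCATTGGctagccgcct
Herpud1 and Dnajb11 instead held the related element ERSE-II, ATTGG and CCACG with 1 base between them, which 12 of all 27025 genes had. That of Dnajb11 lies after the start of the gene and is not printed.
Herpud1 (chr8:94386367-94386397, gene on the plus strand): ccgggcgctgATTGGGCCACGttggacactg
The XBP1 element TGACGTGG was in 2 of the 33 members, Txndc5 and Txndc11, and in 0.714% of all genes, and the amino acid response element TGATGNAAT was in 0 of the 33 and in 1.08% of all genes. A match describes the letters only.

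The module took its largest share of a class's transcripts in GP, SEC-PRO and the goblet and Paneth precursors. Members made up 1.80% and 1.80% of all UMIs in GP, 1.59% and 1.59% in GOBLET-PRE, 1.49% and 1.47% in SEC-PRO and 1.23% and 1.18% in PANETH-PRE. The share was 0.915% and 1.05% in NON-EC, 0.849% and 0.867% in ENTERO-PRO, 0.761% and 0.857% in EC, 0.679% and 0.740% in GOBLET, 0.722% and 0.692% in TUFT and 0.697% and 0.700% in EEC-PRE. It was 0.568% and 0.696% in ISC and lowest in PANETH at 0.304% and 0.298%. Both libraries thus put the same 4 classes on top and the same class at the bottom, and the order in between moved with the library. Free RNA, read from barcodes with at most 50 UMIs, had 0.993% and 0.790% of its UMIs on members. That was above the shares in PANETH, ISC, TUFT, EEC-PRE and GOBLET and below those in the top classes. In NON-EC, ENTERO-PRO and EC the share lay below that of free RNA in replicate 1 and above it in replicate 2.

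After scaling, the picture changed for the mature cells. The summed level was 14431 ± 16.7 CPM in GOBLET-PRE (mean ± SD, n = 2 libraries), 14201 ± 273 in GP, and 13968 ± 721 in PANETH-PRE, and these 3 differed by less than the SD of GP or PANETH-PRE. PANETH followed with 12424 ± 1132 and SEC-PRO with 11578 ± 23.8, closer to each other than the SD of PANETH, and then GOBLET with 10483 ± 207. NON-EC and ENTERO-PRO stood at 7565 ± 727 and 7551 ± 41.8, within each other's spread. EC, EEC-PRE, TUFT and ISC were lowest, at 6372 ± 531, 5579 ± 64.8, 5334 ± 181 and 4969 ± 611, the last pair closer than the SD of ISC. Paneth cells therefore stood lowest by share of UMIs and among the upper classes by scaled level, and which of these is read depends on whether the few granule genes are counted in the total.

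**Figure D1:**
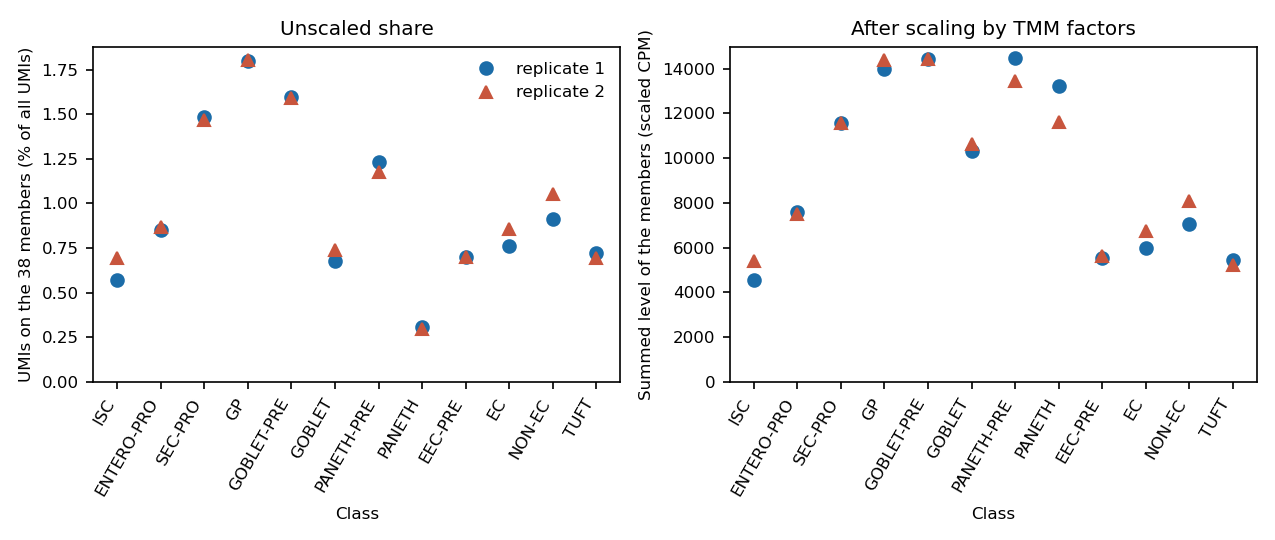
Summed member transcripts in 12 classes (horizontal axis), each point 1 library: left, percent of all UMIs of the class, unscaled; right, summed CPM after scaling by TMM factors. GP is highest on the left at 1.80% in both libraries and PANETH lowest at 0.304% and 0.298%, while on the right PANETH stands at 13225 and 11624 CPM, above SEC-PRO.

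Hspa5, for BiP, was the member with the most UMIs, 60960 and 44982. Its scaled level was 662 and 838 CPM in ISC, 1572 and 1744 in SEC-PRO, 2073 and 2389 in GP and 2283 and 2591 in GOBLET-PRE. In PANETH-PRE it was 2086 and 2303, in PANETH 1861 and 1715 and in GOBLET 1510.5 and 1562. It was 437 and 715 in EEC-PRE, 636 and 688 in TUFT, 559 and 989 in EC, 949 and 1348 in NON-EC and 1139 and 1232 in ENTERO-PRO. For Hspa5 the 6 classes of SEC-PRO, GP and the goblet and Paneth cells thus stood above the other 6 in both libraries, GOBLET against NON-EC by the narrowest margin. Hsp90b1, for the chaperone GRP94, had another order. Its mean scaled level was lowest of all classes in PANETH, at 683 CPM, and highest in GP, at 1598.

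**Figure D2:**
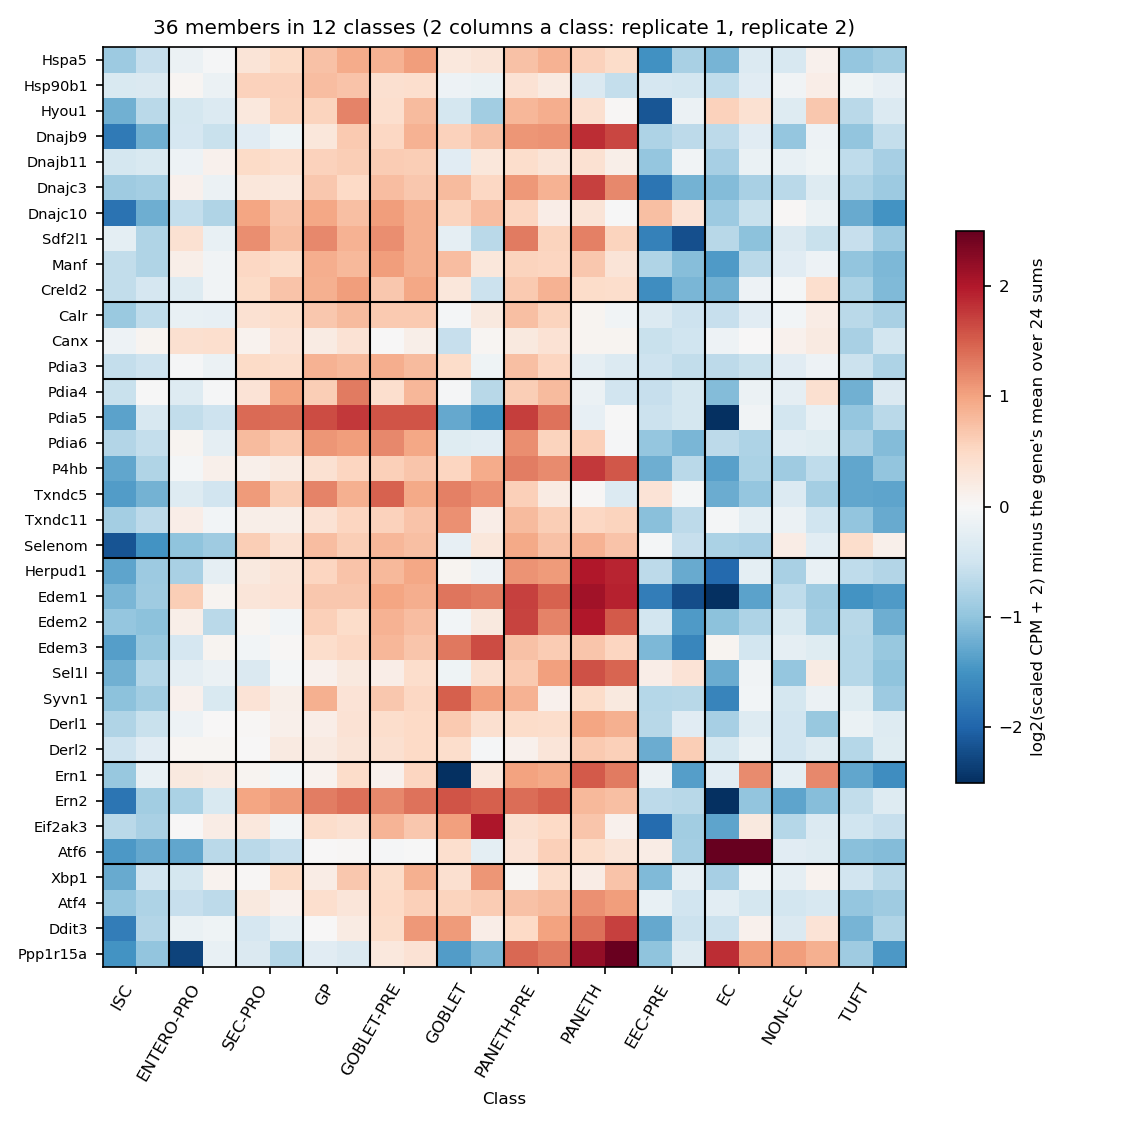
Each row is 1 of the 36 tested members grouped by role and each pair of columns 1 class in replicates 1 and 2; colour is log2(scaled CPM + 2) minus the mean of the gene over all 24 sums, with the scale ending at 2.5 in either direction. Most rows are low in ISC, the enteroendocrine classes and TUFT and high from SEC-PRO to the goblet and Paneth classes, and Atf6 stands out in EC.

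When crypt cells entered the secretory lineage, nearly the whole module rose together. In SEC-PRO against ISC, 35 of the 36 tested members were called higher and 0 lower, where 19.3% of all 10994 genes were called higher and 15.2% lower. No member was lower at an unadjusted p of 0.05 in edgeR, and DESeq2 also called 0 lower. The median member change was 1.14 against 0.02 over all genes. Immediate-early genes, which respond to cell dissociation, rose in the same comparison, 14 of 16 higher and 1 lower with a median of 1.06, from a summed 919.5 and 1494 CPM in ISC to 2396 and 2819 in SEC-PRO, and their part in the module's rise was not tested. Only Atf6 was not called, at 0.72 ± 0.30 (adjusted p = 0.0841). All 177 calls of members over the 13 comparisons here had the same direction in each library on its own. That is no separate evidence, since the calls came from these same 2 libraries.

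The steepest rise was that of Dnajc10, for the disulfide-reducing co-chaperone ERdj5. It went from 56 and 88.3 CPM in ISC to 412 and 336 in SEC-PRO (log2 change 2.30 ± 0.15, adjusted p = 1.31e-12). Ern2, the epithelial IRE1, rose by 2.29 ± 0.15 (adjusted p = 5.82e-16). Selenom, a thioredoxin-like selenoprotein of the ER, rose by 2.26 ± 0.20 (adjusted p = 1.38e-06) from 125 and 197 to 855 and 726 CPM. The isomerases Pdia5 and Txndc5 came next at 2.18 ± 0.21 and 2.11 ± 0.11. So the members that gained most were not the major chaperones, which rose by about the median: Hspa5 by 1.15 ± 0.12, Calr, for the lectin chaperone calreticulin, by 1.18 ± 0.09 and Hsp90b1, for GRP94, by 0.96 ± 0.09.

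The smallest called rises were those of Canx, for the membrane lectin calnexin, at 0.25 ± 0.09 (adjusted p = 0.0292), the retrotranslocation factor Derl2 at 0.52 ± 0.13 (adjusted p = 0.000798) and Ern1 at 0.56 ± 0.22 (adjusted p = 0.0364). Calnexin and calreticulin, partners in the same cycle, moved unequally: Canx went from 298 and 341 to 346 and 415 CPM, where Calr went from 447 and 553 to 1118 and 1155. By role, all 10 chaperones, all 3 calnexin cycle genes, all 7 isomerases, all 8 tested degradation genes, 3 of 4 sensors and all 4 tested factors rose, with median changes of 1.17, 1.02, 1.38, 1.08, 0.85 and 0.95. The isomerases' part of the module's UMIs grew from 17.9% and 20.2% in ISC to 27.1% and 25% in SEC-PRO.

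From SEC-PRO to GP the module rose further by small steps. In this comparison 15 of 36 members were called higher and 0 lower by edgeR, against 4.38% of all genes higher and 12.7% lower. No member was lower at an unadjusted p of 0.05, and DESeq2 called 0 lower and 9 higher. All 36 changes were positive, with a median of 0.32 where all genes had -0.07. The calls were 6 of 10 chaperones, 2 of 3 calnexin cycle genes, 1 of 7 isomerases and 6 of 8 degradation genes. The largest were Dnajb9, for the BiP co-chaperone ERdj4, at 0.67 ± 0.13 (adjusted p = 2.52e-05), from 48.2 and 54.5 to 72.1 and 93 CPM, and Edem2 and Edem3, for lectins that mark misfolded glycoproteins for removal, at 0.55 ± 0.13 and 0.52 ± 0.13. Dnajc3, for the BiP partner p58IPK, Calr and Herpud1 had the smallest called changes, 0.32 ± 0.10, 0.32 ± 0.09 and 0.34 ± 0.11. Without the library block 1 member was called higher, so the count of this step rests on comparing classes within each library.

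Beyond GP, goblet precursors changed little. In GOBLET-PRE against GP, 2 of 36 members were higher and 1 lower, against 4.90% and 4.48% of all genes, shares near the background. The 2 members called higher were Ddit3, for the factor CHOP, by 0.68 ± 0.15 (adjusted p = 0.000547), and Ppp1r15a by 0.66 ± 0.17 (adjusted p = 0.00755). Ppp1r15a is the gene for GADD34, which restores translation by dephosphorylating eIF2α. Hsp90b1 fell by 0.34 ± 0.09 (adjusted p = 0.00496), from 1631 and 1564 to 1251 and 1275 CPM. Its gene overlaps Gm15344 on the same strand over 977 bases. Immediate-early genes moved in the same direction as Ddit3 and Ppp1r15a, with summed levels of 2951 and 3160.3 CPM in GP and 4569.8 and 5509 in GOBLET-PRE, and their part in this result was not tested. Scaled by library size alone, 1 member was higher and 5 lower, and without the library block 0 were called in either direction. With cells thinned to 2000 UMIs 0 were higher and 2 lower, and DESeq2 called 1 higher and 1 lower.

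Between the goblet and Paneth precursors the members differed about as often as genes at large. In PANETH-PRE against GOBLET-PRE, 7 of 36 members were higher and 4 lower, against 14.1% and 10.0% of all genes, with a median difference of -0.00094. Ppp1r15a was higher by 1.11 ± 0.17 (adjusted p = 5.49e-07), at 82.7 and 74.7 CPM in PANETH-PRE and 35.2 and 38.2 in GOBLET-PRE. Ern1 was higher by 0.73 ± 0.22 (adjusted p = 0.00881) and Edem2 by 0.68 ± 0.12 (adjusted p = 5.33e-06). The others were Edem1, the isomerase P4hb, Sel1l, the adaptor of the HRD1 ubiquitin ligase, and Dnajb9, at 0.66 ± 0.12, 0.60 ± 0.11, 0.56 ± 0.13 and 0.43 ± 0.13.

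Goblet precursors held more of the isomerase Txndc5, with PANETH-PRE lower by 0.81 ± 0.11 (adjusted p = 1.85e-08), 485 and 366 against 886 and 617 CPM. PANETH-PRE was also lower in Dnajc10 by 0.62 ± 0.14, in Xbp1 by 0.43 ± 0.11 and in Manf, for a secreted protein that binds BiP, by 0.41 ± 0.10. The gene models of Manf and Rbm15b share 6511 bases on the same strand, so the Manf counts are less certain. The balance of calls moved with the scaling: 3 higher and 16 lower by library size alone, 7 and 7 with TMM over all genes, 6 and 7 with DESeq2 size factors, and 4 and 2 without the library block. Summed immediate-early genes stood at 6185 and 6069 CPM in PANETH-PRE and 4569.8 and 5509 in GOBLET-PRE, with 4 of 16 called higher and 1 lower and a median of 0.31. Their part in the Ppp1r15a difference was not tested.

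Maturation of goblet cells went with lower levels of chaperones and isomerases. In GOBLET against GOBLET-PRE, 11 of 36 members were called lower and 0 higher by edgeR, where 3.86% of all genes were lower and 8.21% higher. At an unadjusted p of 0.05, 2 members were higher, and DESeq2 called 0 higher. The median member change was -0.28 against -0.07 over all genes. The members called lower were 5 chaperones (Hspa5, Hsp90b1, Sdf2l1, Manf and Creld2), 3 isomerases (Pdia4, Pdia5 and Pdia6), Calr and Pdia3 of the calnexin cycle, and Herpud1. Scaled by library size alone, which moves the median of all genes to -0.77, 25 members were called lower and 0 higher, and 16 and 17 were lower with TMM over all genes and with DESeq2 size factors. Immediate-early genes fell in the same comparison, 9 of 16 lower and 0 higher by edgeR (0 also at an unadjusted p of 0.05) with a median of -1.46, from a summed 4569.8 and 5509 CPM in GOBLET-PRE to 2073 and 2000 in GOBLET, and their part in the members' falls was not tested.

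Pdia5 fell furthest, by 3.09 ± 0.69 (adjusted p = 0.0076). It stood at 224 and 224 CPM in GOBLET-PRE and 29.6 and 24.7 in GOBLET, the latter from 3 and 4 UMIs, so the level in GOBLET was 0.119 of that in GOBLET-PRE with a counting interval of 0.0477 to 0.245. Sdf2l1, for a partner of the BiP co-chaperones, fell by 1.51 ± 0.34 (adjusted p = 0.000523) from 159 and 131 to 59.2 and 43.2 CPM. Pdia6 fell by 1.34 ± 0.18 (adjusted p = 9.06e-08) and Pdia4 by 1.10 ± 0.33 (adjusted p = 0.021), from 176 and 233 to 128 and 80.2 CPM. For all of these both GOBLET values lay below both GOBLET-PRE values. This adds no separate evidence, since the genes were picked as called falls in the same sums.

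Creld2, another gene induced by ER stress, fell by 1.02 ± 0.32 to 88.9 and 49.4 CPM from 118 and 143, and Hspa5 fell by 0.68 ± 0.15 (adjusted p = 0.00221). The smallest called falls were Hsp90b1 at -0.56 ± 0.12, Calr at -0.53 ± 0.12 and Manf at -0.45 ± 0.15. Among members that did not pass the test, P4hb stood at 0.11 ± 0.15, Dnajc3 at -0.077 ± 0.18, Xbp1 at 0.11 ± 0.16 and Edem3 at 0.75 ± 0.28. GOBLET had only 42 and 84 cells, which limits what could be called there.

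Maturation of Paneth cells rearranged the module and did not move it as a block. This is seen most directly in how the module's own UMIs were divided, which needs no scaling between classes. Degradation genes made up 11.1% and 11.2% of the module's UMIs in PANETH, 6.80% and 6.89% in PANETH-PRE and 6.97% and 6.74% in GOBLET, and from 3.55% to 5.74% in the 9 other classes. The calnexin cycle took 14% and 14.8% in PANETH against 21% and 20.2% in PANETH-PRE and from 18.99% (GOBLET in replicate 2) to 26.8% (ISC in replicate 1) in the other classes. Exact 95% binomial intervals for PANETH and PANETH-PRE did not overlap for either role in either library, and these intervals cover counting error only.

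**Figure D3:**
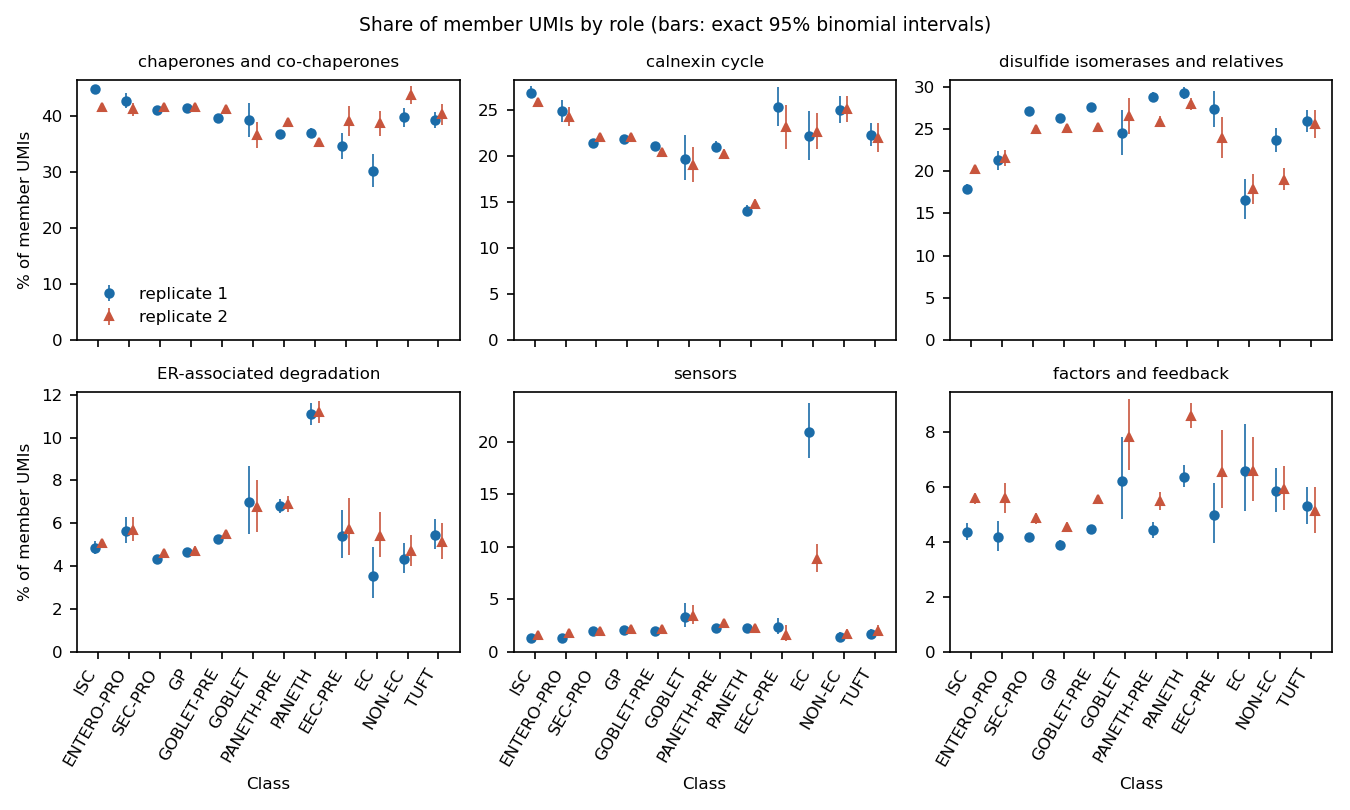
Percent of all module UMIs held by each of 6 roles (panels) in 12 classes, per library, with exact 95% binomial intervals. PANETH has the highest share of degradation genes (11.1% and 11.2%) and the lowest of the calnexin cycle (14% and 14.8%), and the sensors' share in EC (21% and 8.83%) is mostly that of Atf6 (20.7% and 7.41%).

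In the scaled fit, PANETH against PANETH-PRE had 9 members higher and 9 lower, against 5.36% and 2.79% of all genes, with a median of -0.06 beside 0.09 over all genes. By library size alone all 36 were called lower and the median of all genes was -1.71, so every direction upward given here is relative to the bulk of genes. Without the library block 2 were higher and 4 lower. Relative to that bulk the median member stood at -0.15 with the scaling and -0.18 by library size. Of the degradation genes 4 of 8 were higher, of the factors 2 of 4 and of the chaperones 2 of 10. The members that were lower were 4 of 7 isomerases, 2 of 3 calnexin cycle genes, 2 chaperones and Ern2.

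Ppp1r15a rose most, by 0.99 ± 0.17 (adjusted p = 2.77e-05), to 141 and 171 CPM, though by library size alone it was -0.83. Herpud1, for a membrane adaptor of the HRD1 degradation complex, rose by 0.85 ± 0.12 (adjusted p = 2.79e-07) from 269.6 and 259 to 492 and 461 CPM, against -0.98 by library size alone. Ddit3 rose by 0.81 ± 0.19 (adjusted p = 0.00161) to 74.6 and 93.8 CPM, against -1.01. The other scaled rises were Sel1l, Dnajb9, Derl1 for a retrotranslocation factor, and, smallest, Dnajc3 at 0.49 ± 0.11, P4hb at 0.43 ± 0.11 and Edem1 at 0.43 ± 0.13, all of which were negative by library size alone. Edem1 reached 219 and 193 CPM in PANETH, from 165 and 142 in PANETH-PRE and 21.3 and 25.6 in ISC.

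Pdia5 fell by 1.69 ± 0.27 (adjusted p = 0.00102) from 250.3 and 195 to 64.6 and 74.1 CPM, Pdia4 by 1.04 ± 0.17 (adjusted p = 4.58e-05) to 117 and 93.8 CPM, and Pdia3, for the calnexin cycle's oxidoreductase ERp57, by 0.93 ± 0.10 (adjusted p = 2.26e-12). Calr fell by 0.66 ± 0.10 to 899 and 809.5 CPM. The smallest called falls were those of Calr, Pdia6 and Txndc5, the latter at -0.59 ± 0.12 and -0.56 ± 0.12. P4hb therefore parted from its relatives: it made up 12.9% and 12.7% of the module's UMIs in PANETH, 8.40% and 8.48% in PANETH-PRE and 5.26% and 5.59% in GOBLET-PRE.

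Pdia5 and Pdia4 were lower in both mature classes than in their precursors, while Herpud1 was lower in goblet and, after scaling, higher in Paneth maturation. The difference of the changes was tested as an interaction, and 4 members were higher for the Paneth pair and 0 lower by edgeR, against 3.38% and 5.07% of all genes. At an unadjusted p of 0.05, 4 were lower, and DESeq2 called 0 lower. The 4 were Ppp1r15a at 2.67 ± 0.72, Herpud1 at 1.81 ± 0.28, Sdf2l1 at 1.49 ± 0.37 and Pdia6 at 0.76 ± 0.22. Of the immediate-early genes 8 of 16 were higher for the Paneth pair and 0 lower by edgeR (0 also at an unadjusted p of 0.05), and their part in this was not tested. By library size alone 0 were higher and 19 lower, with a median of all genes of -0.91, and Pdia6 turned to -0.37, while TMM over all genes gave 12 higher, DESeq2 size factors 13 and the fit without the library block 2.

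The mature classes set against each other share their sums with these comparisons. In PANETH against GOBLET, 10 members were higher and 4 lower, against 8.56% and 10.3% of all genes, with medians of 0.46 for members and 0.25 for all genes. The split was 15 and 1 with TMM over all genes or DESeq2 size factors, and 1 and 22 by library size alone. Ppp1r15a led with 3.78 ± 0.59 (adjusted p = 8.13e-07), but GOBLET held only 1 and 2 UMIs of it, and the ratio of 13.8 had a counting interval of 4.69 to 67.3. It was the one member still called higher by library size alone. Immediate-early genes were also higher in PANETH than in GOBLET, 11 of 16 called and 0 lower by edgeR (0 also at an unadjusted p of 0.05), and their part in this was not tested. Herpud1 was higher by 2.03 ± 0.25 and Edem2 by 1.65 ± 0.33, and the smallest called were Dnajc3, Edem1 and Pdia6 at 0.83 ± 0.18, 0.71 ± 0.25 and 0.55 ± 0.20, these last 3 negative by library size.

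Goblet cells held more of Txndc5 and of Eif2ak3, for the sensor PERK. PANETH was lower by 1.38 ± 0.16 (adjusted p = 4.16e-10) in Txndc5, at 326 and 249.7 against 770 and 709.9 CPM. It was lower by 1.38 ± 0.45 (adjusted p = 0.0198) in Eif2ak3, at 30.9 and 19.7 against 39.5 and 80.2 CPM, the latter from 4 and 13 UMIs. Edem3 and Pdia3 were lower by 0.93 ± 0.30 and 0.45 ± 0.13. Edem1, Edem2 and Edem3, relatives in the same pathway, were therefore split between the mature classes, with Edem1 and Edem2 higher in PANETH by the scaled values and Edem3 higher in GOBLET, at 118 and 148 CPM against 75.5 and 68.1 in PANETH.

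The sensors differed from each other in where they were expressed. Ern2 was at 19.8 and 40.2 CPM in ISC, 151 and 158 in SEC-PRO, 186 and 199 in GP and 175 and 197 in GOBLET-PRE. It was at 227 and 216 in GOBLET, 200 and 215 in PANETH-PRE and 133 and 129 in PANETH, a fall of 0.67 ± 0.16 on the last step (adjusted p = 0.00509). Ern1 was low throughout, at 6.84 and 13 CPM in ISC and 16.3 and 22.7 in GOBLET-PRE, and was highest in PANETH at 47.3 and 40.1 after 32.4 and 30.9 in PANETH-PRE. Of the UMIs of both IRE1 genes, Ern2 took 74.3% and 75.6% in ISC, 90.4% and 91.6% in SEC-PRO, 91.5% and 89.6% in GOBLET-PRE, 86.1% and 87.4% in PANETH-PRE and 73.7% and 76.2% in PANETH. Shares near or below those of PANETH were also found in ENTERO-PRO, at 69.8% and 76.5%, and in NON-EC, at 70% and 48.4%. EC held only 0 and 10 UMIs of Ern2 beside 2 and 10 of Ern1. The exact 95% intervals of PANETH and PANETH-PRE did not overlap in either library (67.0 to 79.7% against 81.9 to 89.6% in replicate 1, and 70.1 to 81.7% against 83.4 to 90.7% in replicate 2). These intervals cover counting error only, not the spread between cells or libraries.

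Eif2ak3 rose in SEC-PRO against ISC by 0.98 ± 0.19 (adjusted p = 1.98e-05), from 10.6 and 9.49 to 22.2 and 17.3 CPM. It stood at 25.3 and 24.5 in GP, 34.7 and 30.3 in GOBLET-PRE, 24.8 and 26.6 in PANETH-PRE and 3.36 and 9.10 in EEC-PRE. Xbp1, for the factor activated when IRE1 splices its transcript, ran from 108 and 187 CPM in ISC over 267 and 366 in SEC-PRO to 361 and 483 in GOBLET-PRE and 346 and 562 in GOBLET. It was 297 and 429.7 in PANETH and 121 and 223 in EEC-PRE. Replicate 2 was above replicate 1 in every class for Xbp1 except TUFT. Counts per gene do not tell its spliced from its unspliced form, and the activity of the sensors was not measured.

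Atf4, for the factor translated when PERK is active, was in ISC at a scaled 74.2 and 85.2 CPM, in SEC-PRO at 173 and 157, GP at 197 and 179.9, GOBLET-PRE at 208 and 221, PANETH-PRE at 245 and 255 and PANETH at 324 and 302. Of these steps SEC-PRO against ISC was called, at 1.04 ± 0.10 (adjusted p = 6.16e-14), and PANETH against PANETH-PRE was not, at 0.32 ± 0.11 (adjusted p = 0.0614). Unscaled, Atf4 was highest in GP and lowest in PANETH, at 252 and 225 and 74.4 and 77.4 CPM, so its order depends on the scaling. Ddit3 went from 6.84 and 15.6 CPM in ISC to 19.9 and 23.2 in SEC-PRO, 39.3 and 56.7 in PANETH-PRE and 74.6 and 93.8 in PANETH. Ppp1r15a was at 9.12 and 13.7 CPM in ISC, 22.2 and 17.1 in SEC-PRO, 9.87 and 12.3 in GOBLET and 141 and 171 in PANETH, the highest of all classes in both libraries after scaling. Unscaled, Ddit3 was highest in GOBLET-PRE and Ppp1r15a in EC, the latter at 139 and 79.4 CPM against 32.4 and 43.8 in PANETH. Summed immediate-early genes were also highest in PANETH after scaling, at 7190 and 8361 CPM, where they were 1652 and 2143 unscaled against 6943 and 5283 in EC. Scaled they were 919.5 and 1494 in ISC and 2073 and 2000 in GOBLET. Their part in the Atf4, Ddit3 and Ppp1r15a results was not tested.

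**Figure D4:**
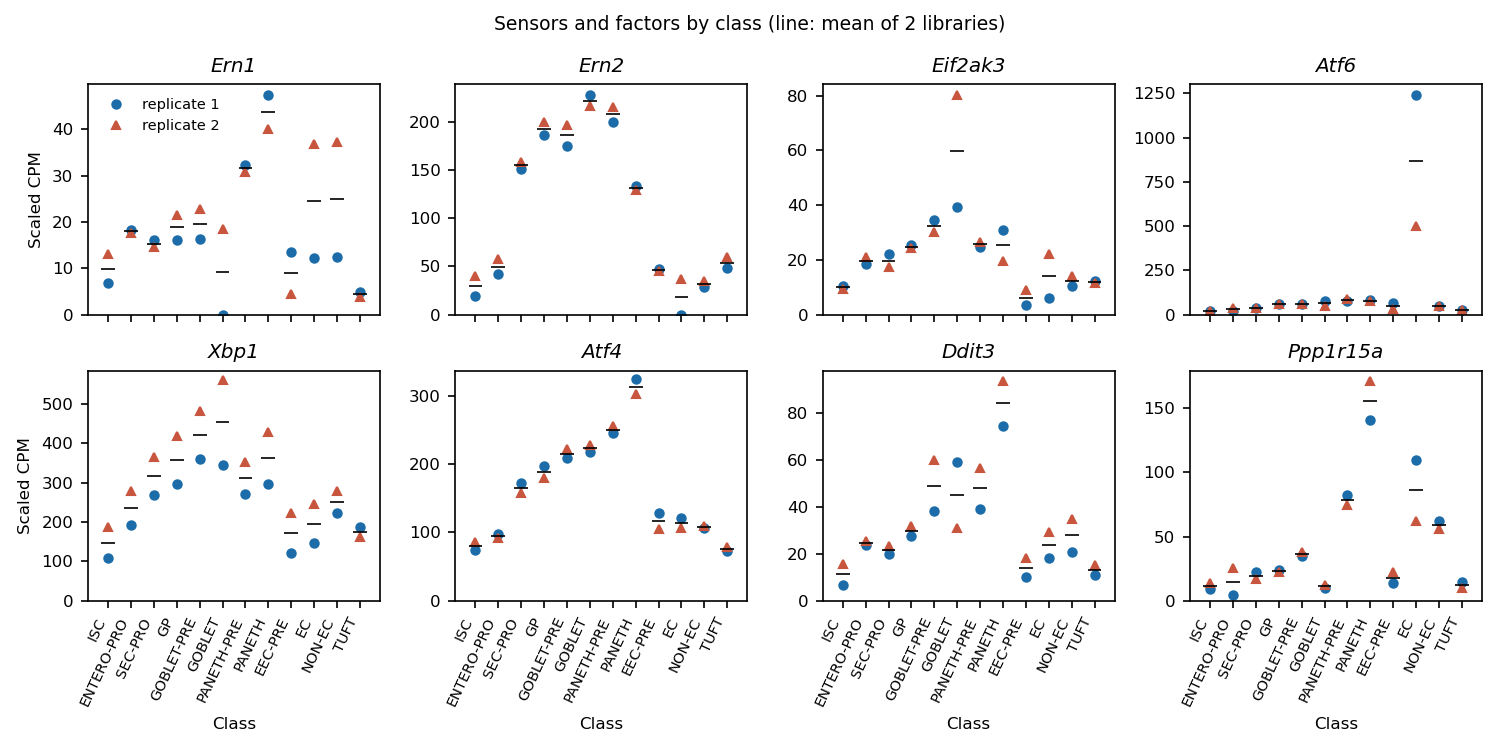
Scaled CPM (vertical axes differ between panels) of 4 sensors and 4 factors in 12 classes, with 1 point per library and a line at their mean. Atf6 in EC lies at 1239 and 500.1 CPM and at most 89.8 in every other sum, and after scaling Atf4 and Ppp1r15a are highest in PANETH, Ppp1r15a at 141 and 171 CPM, where unscaled Atf4 is highest in GP and Ppp1r15a in EC.

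Atf6, for the sensor that is cut in the Golgi to release a transcription factor, stood apart from every other member. In EC cells it reached 1239 and 500.1 CPM, from 204 and 136 UMIs, a mean of 870 ± 523 (SD, n = 2). In NON-EC it was at 47.7 and 46.7, in EEC-PRE at 67.2 and 31.9 and in ISC at 20.5 and 23.1, and in the classes from SEC-PRO to PANETH and GOBLET it lay from 35.9 to 89.8 CPM. Both EC values lay above every value in the other classes, and the 2 libraries differed: replicate 1 was more than 2 times replicate 2 in EC. In EC against NON-EC, a comparison added after these levels had been seen, the difference was 4.11 ± 0.41 (adjusted p = 6.83e-05), 4.68 in replicate 1 alone and 3.40 in replicate 2 alone.

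The Atf6 signal was spread over cells. In EC a UMI was found in 37 of 42 cells (88.1%, exact 95% interval 74.4 to 96%) in replicate 1 and in 50 of 83 cells (60.2%, exact 95% interval 48.9 to 70.8%) in replicate 2, and the single highest cell held 9.31% and 5.88% of the class's Atf6 UMIs. These intervals cover counting error within a library only, not the spread between libraries, and those of the 2 libraries did not overlap. In NON-EC the shares were 18.4% and 14.3% of cells. The median depth per cell was 2913 and 2164 UMIs in EC and 3534 and 2449.5 in NON-EC. Free RNA had Atf6 at 29.8 and 30.0 CPM, below the EC level by a factor of more than 10 in either library. The gene lies at chr1:170704674-170867771 (GRCm38) on the minus strand, and its gene model overlaps on that strand only Gm23523 and Gm25235, both annotated as small nuclear RNA genes. Counts per gene do not tell which transcript of the locus the UMIs in EC came from. In the same comparison 1 member, Atf6 itself, was higher and 3 were lower, against 0.791% and 0.728% of all genes, namely Manf at -0.71 ± 0.19, Calr at -0.47 ± 0.13 and Hsp90b1 at -0.47 ± 0.12. Without the library block 0 were called lower, as 1 was by DESeq2. With Hspa5 at 559 and 989 CPM in EC and 949 and 1348 in NON-EC, its change was -0.53 ± 0.16 and did not pass the test (adjusted p = 0.124).

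Enteroendocrine precursors stood below the secretory progenitors in most members. In EEC-PRE against SEC-PRO, 23 of 36 members were lower and 0 higher by edgeR, against 10.6% and 12.7% of all genes. None was higher at an unadjusted p of 0.05, and DESeq2 called 0 higher. The median member change was -1.02 against -0.001 over all genes. Sdf2l1 was lowest at -3.03 ± 0.34 (adjusted p = 5.24e-12), from 158 and 119 to 20.2 and 13.7 CPM. Few UMIs lay behind it in EEC-PRE (6 and 3), and the ratio of 0.123 had a counting interval of 0.0561 to 0.234.

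Edem1 fell by 2.42 ± 0.44 (adjusted p = 7.76e-06) to 13.4 and 9.10 CPM, a ratio of 0.186 with a counting interval of 0.0681 to 0.408. Creld2 fell by 2.02 ± 0.31 (adjusted p = 2.19e-07) to 23.5 and 31.9 CPM, and Hspa5 by 1.56 ± 0.15 (adjusted p = 3.07e-08). The smallest called falls were Selenom at -0.76 ± 0.25, Canx at -0.74 ± 0.15 and Txndc5 at -0.68 ± 0.15. Dnajc10, the member that rose most on entry into the secretory lineage, stood at 353 and 264 CPM in EEC-PRE and its change of -0.26 ± 0.20 was not called (adjusted p = 0.387).

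In the hormone cells part of the module came back up. In EC and NON-EC, weighted equally, against EEC-PRE, 6 members were higher and 2 lower, against 5.86% and 4.12% of all genes, with medians of 0.32 for members and 0.18 for all genes. Ppp1r15a rose by 1.98 ± 0.49 (adjusted p = 0.00381) from 13.4 and 22.8 CPM in EEC-PRE to 109 and 62.5 in EC and 62.2 and 56 in NON-EC. Sdf2l1 rose by 1.36 ± 0.47 (adjusted p = 0.0465) and Creld2 by 1.26 ± 0.38 (adjusted p = 0.0204). Dnajc3, Hspa5 and Canx had the smaller rises, 0.85 ± 0.26, 0.75 ± 0.15 and 0.58 ± 0.16, and Txndc5 and Dnajc10 fell by 0.98 ± 0.18 and 0.96 ± 0.24. Immediate-early genes summed to 2187 and 2226 CPM in EEC-PRE, 5468 and 4159 in EC and 3723 and 3973 in NON-EC, and their part in the Ppp1r15a result was not tested. The counts were 9 and 2 by library size alone, 4 and 2 with TMM over all genes, and 3 and 2 with DESeq2 size factors.

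Tuft cells, which make no large granules, stayed near the stem cells. In TUFT against ISC, 2 members were higher and 2 lower, against 15.5% and 13.6% of all genes, with a median of 0.03 where all genes had 0.03. Selenom was the exception in size, at 761 and 613 CPM in TUFT and 125 and 197 in ISC (log2 change 2.06 ± 0.21, adjusted p = 9.54e-06). Ern2 was higher by 0.76 ± 0.26 (adjusted p = 0.024), and Canx and Manf were lower by 0.61 ± 0.12 and 0.38 ± 0.13. The split was 5 and 1 by library size alone, 1 and 5 with TMM over all genes or DESeq2 size factors, and 1 and 1 without the library block.

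The enterocyte progenitors were above the stem cells in most members. In ENTERO-PRO against ISC, which shares the ISC sums with SEC-PRO against ISC, 27 members were higher and 0 lower by edgeR, against 18.7% and 18.4% of all genes. None was lower at an unadjusted p of 0.05, and DESeq2 called 0 lower. The median was 0.66 for members and -0.07 for all genes. Edem1 rose by 1.37 ± 0.19 (adjusted p = 9.06e-09), P4hb by 1.04 ± 0.12 (adjusted p = 4.77e-09) and Ddit3 by 1.02 ± 0.30 (adjusted p = 0.00357), while Hsp90b1, Dnajb11 for the co-chaperone ERdj3, and Canx had the smallest called rises at 0.32 ± 0.09, 0.42 ± 0.14 and 0.44 ± 0.10. The goblet markers in this class, given above with the marker checks, moved with this result, as did 7 of 16 immediate-early genes called higher and 1 lower, and their part in it was not tested.

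**Figure D5:**
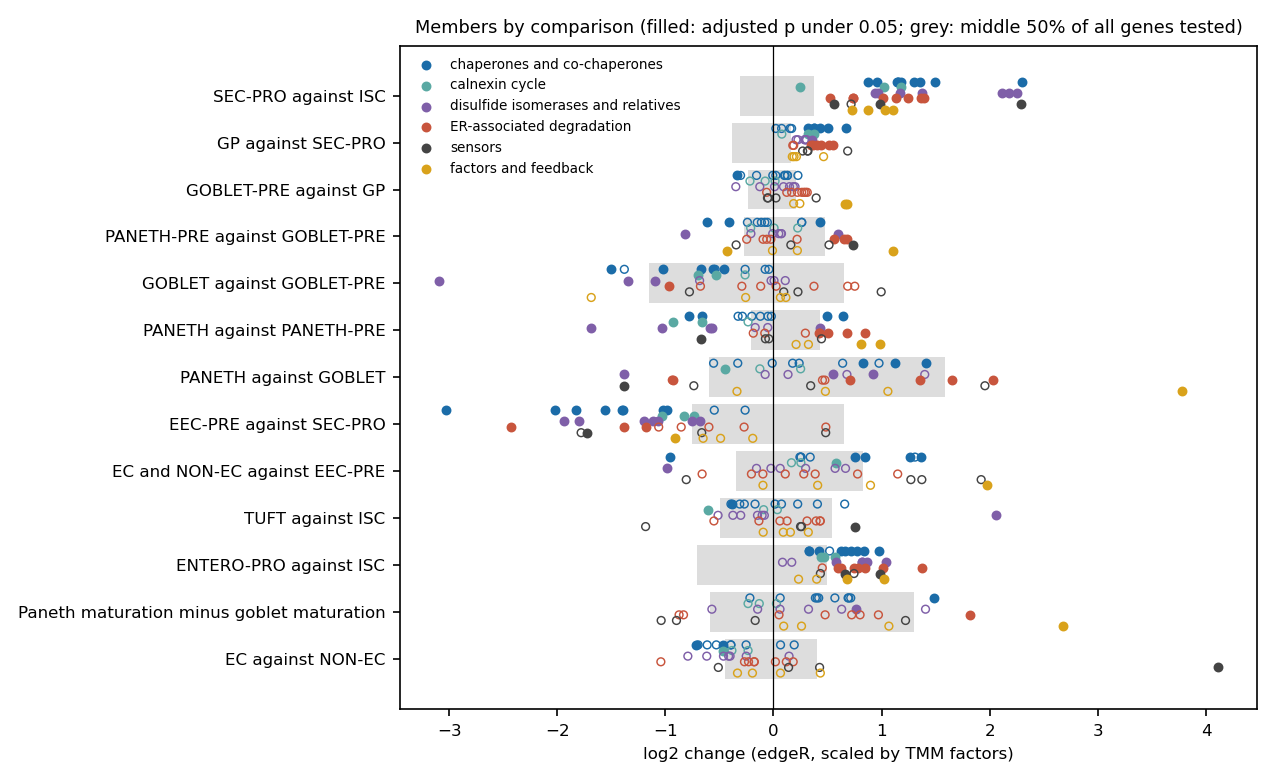
Each point is 1 tested member in 1 of 13 comparisons (rows); the horizontal axis is the log2 change from edgeR with TMM scaling, colour the role, filled points an adjusted p under 0.05, and grey bars the middle 50% of all genes tested. SEC-PRO against ISC and ENTERO-PRO against ISC lie to the right, EEC-PRE against SEC-PRO to the left, and PANETH against PANETH-PRE spreads to both sides, where by library size alone all 36 members were lower.

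Viewed gene by gene, the members reached their highest scaled level in different classes: 15 in PANETH, 7 in GP, 7 in GOBLET-PRE, 6 in GOBLET, and 1 each in PANETH-PRE, EC (Atf6) and ENTERO-PRO (Canx). The highest class was the same in both libraries for 24 of the 38. Unscaled, 21 members were highest in GP and 23 lowest in PANETH, so the count of 15 depends on the scaling. Manf stood at 224 and 205 CPM in ISC, 498 and 475 in SEC-PRO, 714 and 638 in GOBLET-PRE and 551 and 433 in PANETH. Creld2 was at 46.3 and 53.9 CPM in ISC, 102 and 120.5 in SEC-PRO, 137 and 152 in GP and 101 and 98.4 in PANETH, and Pdia4 at 88.1 and 130.1, 166 and 266, 203 and 326 and 117 and 93.8 in the same order. For these the top lay in GP or GOBLET-PRE and PANETH was below it in both libraries.

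Members with the ER stress response element may be set beside the other members of the promoter table as a description. Members absent from that table, Atf6 among them, are left out, and Herpud1 and Dnajb11 with ERSE-II count as without the element. The shares of all genes called are given above with each comparison. In SEC-PRO against ISC, 8 of the 8 tested members with it and 23 of the 23 tested without it rose, with medians of 1.15 and 1.04. In GP against SEC-PRO 6 of 8 and 7 of 23 rose, in GOBLET against GOBLET-PRE 5 of 8 and 5 of 23 fell, and in EC and NON-EC against EEC-PRE 4 of 8 and 2 of 23 rose. All 8 had negative changes in EEC-PRE against SEC-PRO and 7 of them were called, against 13 of 23, and in ENTERO-PRO against ISC 7 of 8 and 17 of 23 rose. The Paneth comparisons had other splits: in PANETH-PRE against GOBLET-PRE 0 of 8 were called, against 7 higher and 3 lower of 23, in PANETH against PANETH-PRE 1 of 8 and 7 of 23 were higher and 3 of 8 and 4 of 23 lower, and in PANETH against GOBLET 2 of 8 and 8 of 23 were higher and 0 of 8 and 4 of 23 lower. The 4 remaining comparisons had at most 3 calls in either set. The difference between members with and without the element was not tested.

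The untested members were rare. Derl3, for a retrotranslocation factor of professional secretory cells, had 11 and 8 UMIs in PANETH, 12 and 19 in SEC-PRO, 7 and 15 in PANETH-PRE and 12 and 8 in GOBLET-PRE. By level it was at 10.0 and 6.05 CPM in PANETH and 4.83 and 10.8 in PANETH-PRE. Trib3, for a pseudokinase induced by ATF4 and CHOP, had 9 and 5 UMIs in PANETH and 19 and 7 in GOBLET-PRE, or 8.19 and 3.78 and 1.25 and 1.26 CPM. At this depth no difference of either gene between classes was tested.

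Genes of the same pathways outside the 38 members also rose on entry into the secretory lineage. In SEC-PRO against ISC, 20 of 28 tested genes of a list of other ER folding genes were higher and 1 lower, with a median of 0.62, where 19.3% of all genes were higher and 15.2% lower, shares that also stand beside the next lists. Agr2, for the isomerase that folds mucins, was at 1423 and 2202 CPM in ISC and 9964 and 7316 in SEC-PRO (log2 change 2.25 ± 0.60, adjusted p = 0.0113). Qsox1, for a sulfhydryl oxidase, was higher by 1.94 ± 0.14 and Cnpy2 by 0.33 ± 0.11, while Tmx4, for a membrane thioredoxin, was lower by 0.96 ± 0.38. The oxidases that recharge disulfide isomerases differed, Ero1lb rising by 1.26 ± 0.30 (adjusted p = 0.000407) and Ero1l standing at 0.33 ± 0.15 without passing (adjusted p = 0.0885). Of other degradation genes 14 of 21 were higher and 0 lower by edgeR, also 0 at an unadjusted p of 0.05, with a median of 0.50. Selenos at 1.11 ± 0.10 and Ufl1 at 0.95 ± 0.13 were the largest and Aup1 at 0.32 ± 0.12 and Faf2 at 0.39 ± 0.13 the smallest of those called. With TMM over all genes the counts were 17 and 1 for folding and 10 and 0 for degradation.

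Of other signalling genes of the response, 9 of 20 were higher and 2 lower in SEC-PRO against ISC, with a median of 0.33, and 4 were higher and 2 lower with TMM over all genes. Creb3l1 and Creb3l4, for relatives of ATF6 anchored in the ER membrane, rose by 2.37 ± 0.13 and 2.06 ± 0.15, Creb3l1 from 32.9 and 65.5 to 252 and 275 CPM, and Creb3l2 rose by 0.71 ± 0.26. Bloc1s1, a known target of IRE1 decay, was lower by 0.75 ± 0.26 and Eif2s1, for eIF2α, by 0.27 ± 0.11. Of the targets of ATF4 and CHOP, 7 of 19 were higher and 4 lower with a median of 0.25 (5 and 4 with TMM over all genes), with Vldlr at 2.15 ± 0.22, Atf3 at 1.56 ± 0.28 and Asns, for asparagine synthetase, at 0.97 ± 0.13 against Cth at -2.0 ± 0.23 and Cebpb at -1.25 ± 0.19. The 16 immediate-early genes had 14 higher and 1 lower in the same comparison, and Atf3 is in both lists.

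In Paneth maturation targets of ATF4 and CHOP rose relative to the bulk of genes. In PANETH against PANETH-PRE, 8 of 19 were higher and 0 lower by edgeR, also 0 at an unadjusted p of 0.05, against 5.36% and 2.79% of all genes, with a median of 0.68 where all genes had 0.09. Nupr1, for a stress-induced nuclear protein, rose by 2.67 ± 0.11 (adjusted p = 5.96e-35), Psat1, for an enzyme of serine synthesis, by 1.74 ± 0.28 (adjusted p = 2.61e-06) and Asns by 1.19 ± 0.14, from 115 and 98.4 to 271 and 216 CPM. Ddit4 and Slc3a2 had the smallest called rises, 0.67 ± 0.22 and 0.86 ± 0.19. By library size alone 1 of the 19, Nupr1 at 0.84, was higher and 14 were lower, with Asns at -0.64 and Psat1 at -0.09. Chac1, which is not in the tested set, had 79 and 19 UMIs in PANETH and 1 and 6 in PANETH-PRE. Atf3 stood at 0.68 ± 0.26 and was not called (adjusted p = 0.152). Summed, the list was at a scaled 5194 and 4946 CPM in PANETH and 1519.8 and 1661 in PANETH-PRE. Unscaled, the sums were 1193 and 1268 CPM in PANETH and 1293 and 1451 in PANETH-PRE, so the direction depends on the scaling.

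Other folding genes had 3 higher and 2 lower of 28 in Paneth maturation, against the same 5.36% and 2.79% of all genes: Ero1lb and Ero1l were higher by 0.97 ± 0.25 and 0.96 ± 0.17, and Prdx4 and Prkcsh were lower by 1.32 ± 0.27 and 0.71 ± 0.17. Other degradation genes had 3 higher of 21, Ngly1 at 0.81 ± 0.25, Selenos at 0.59 ± 0.11 and Selenok at 0.55 ± 0.13, and 0 lower by edgeR with 1 at an unadjusted p of 0.05. Of other signalling genes, Crebrf and Creb3l2 were higher by 1.08 ± 0.30 and 0.86 ± 0.24, and Creb3l1 was lower by 1.25 ± 0.16. By library size alone 0 genes of these 3 lists were higher and 25, 21 and 19 lower, so the rises hold for the scaled values only. Of the 16 immediate-early genes 3 were higher and 2 lower.

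In the hormone cells against EEC-PRE, 5.86% of all genes were higher and 4.12% lower. Of other folding genes 1 of 28 was higher, Agr3, and Cnpy2 and Qsox1 were lower by 1.40 ± 0.20 and 1.15 ± 0.34. Agr3 and Ngly1, the one other degradation gene called, had 0 UMIs in EEC-PRE in both libraries, so no fold is given. EC held 6 and 6 UMIs of Agr3 and 5 and 6 of Ngly1, and NON-EC 12 and 5 and 10 and 9. Other signalling genes had 0 of 20 called by edgeR, with 1 higher and 1 lower at an unadjusted p of 0.05, and 1 called lower with TMM over all genes. Of the targets of ATF4 and CHOP, Atf3 and Asns rose by 2.37 ± 0.60 and 1.93 ± 0.43, and Aldh18a1 and Ddit4 fell by 1.87 ± 0.45 and 1.47 ± 0.28, while 5 of 16 immediate-early genes were higher.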

How the data were processed

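Raw UMI counts per gene and barcode were deposited for 2 libraries with no cell filter. The submitters' processing notes name Cell Ranger 3.0.2, STAR and the build mm10. A deposited table gives each kept cell's class, its UMI and gene counts and the percent of its UMIs that are mitochondrial, per the file headers. The sources used here do not say how cells were kept and classed, and doublets were not called.

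Counts were summed per class and library (24 sums) and fitted in edgeR 4.0.16 (R 4.3.3, limma 3.58.1) with class and library as terms, TMM factors computed from genes whose mean log2 CPM reached 6, and a filter on low counts (filterByExpr). The median biological coefficient of variation was 0.0641, with 11 residual degrees of freedom. Library is a block because each class was taken from both libraries. Deviations from class means correlated within libraries in all 66 pairs of classes (median r 0.297, 0.0551 to 0.777, over 3814 genes). Alternatives were TMM over all genes, DESeq2 size factors, library size only, DESeq2 1.42.0 as the test, no filter, no block, cells thinned to 2000 UMIs, and each library alone. The fit was tested on simulated data in which 200 genes were given a log2 change of size 1, up or down. It recovered 74.5% of them in SEC-PRO against ISC, 58% in PANETH against PANETH-PRE and 20.5% in GOBLET against GOBLET-PRE. False calls among the unchanged genes numbered 33, 12 and 2 in the same order. As a share of all calls these exceeded the adjusted p threshold of 0.05 in SEC-PRO against ISC and in PANETH against PANETH-PRE. They did not exceed it in GOBLET against GOBLET-PRE. In these simulated data the test thus ran above its nominal error rate in the first 2 comparisons, and real calls there may include more false ones than the threshold states. Sequences are from RefSeq and gene positions from GENCODE on GRCm38.

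The members and lists were chosen with earlier results of these data known. Named are 19 members in every library, the 3 largest and 3 smallest called changes of each comparison, and from the other lists the 2 largest and 2 smallest in 3 comparisons.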

Additional observations from a re-analysis of the deposited data

Results flagged for a closer look

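In 4 members the change from precursor to mature cell differed between the Paneth and the goblet pair in edgeR's interaction test. The difference (Paneth minus goblet, log2) was 2.67 ± 0.72 for Ppp1r15a (adjusted p = 0.00884), 1.81 ± 0.28 for Herpud1 (adjusted p = 2.29e-06), 1.49 ± 0.37 for Sdf2l1 (adjusted p = 0.0035) and 0.76 ± 0.22 for Pdia6 (adjusted p = 0.0202). Sdf2l1 and Pdia6 were lower in GOBLET than in GOBLET-PRE by 1.51 ± 0.34 and 1.34 ± 0.18, and stood at -0.02 ± 0.14 and -0.59 ± 0.12 in PANETH against PANETH-PRE. By library size alone the differences were 1.55, 0.69, 0.36 and -0.37 in the same order of genes, so the sign of Pdia6 depends on the scaling. The Ppp1r15a value rests on 1 and 2 UMIs in GOBLET.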

How the results depend on the processing

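Of the 177 calls of members over the 13 comparisons, 174 held with no filter on low counts, 166 with TMM over all genes, 163 with DESeq2 size factors, 152 with DESeq2, 140 by library size alone, 129 with cells thinned to 2000 UMIs and 118 with no replicate block. All 177 had the same direction in each library alone, where no test was possible with 1 sum per class. That direction is not independent of the calls, which came from the same libraries. The summed levels in each library alone ran from 4537 in ISC to 14477 in PANETH-PRE. Causes of the changes below were not tested except where fewer UMIs or another total give them by construction. GOBLET had at most 84 cells a library, and genes with few UMIs there or in EEC-PRE could be called only for large changes.

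By library size alone, values turned negative for the median of members in GOBLET-PRE against GP (-0.085), PANETH against GOBLET (-1.02) and Paneth minus goblet maturation (-0.73, with Pdia6 at -0.37). In PANETH against PANETH-PRE they turned negative for Ddit3 (-1.01), Derl1 (-1.32), Dnajb9 (-1.18), Dnajc3 (-1.34), Edem1 (-1.40), Herpud1 (-0.98), P4hb (-1.40), Ppp1r15a (-0.83) and Sel1l (-1.14). In PANETH against GOBLET they did so for Dnajb9 (-0.36), Dnajc3 (-0.66), Edem1 (-0.78), P4hb (-0.57), Pdia6 (-0.94), Sdf2l1 (-0.078) and Sel1l (-0.13). With thinned cells Syvn1 turned to -0.39 in ENTERO-PRO against ISC.

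Counts of members called moved by more than 1.5 times as follows. Members higher in GP against SEC-PRO were 24 with TMM over all genes, 25 with DESeq2 size factors, 1 with no replicate block and 9 with DESeq2. In GOBLET-PRE against GP, higher and lower counts were 4 and 1 with TMM over all genes, 5 and 1 with DESeq2 size factors, 1 and 5 by library size, 0 and 0 with no replicate block, 0 and 2 thinned, 1 higher with DESeq2 and 2 lower with no filter. In PANETH-PRE against GOBLET-PRE they were 3 and 16 by library size, 4 and 2 with no replicate block, and 7 lower with TMM over all genes and DESeq2 size factors. GOBLET against GOBLET-PRE had 17 lower with DESeq2 size factors and 25 by library size.

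PANETH against PANETH-PRE had 0 and 36 by library size, 2 and 4 with no replicate block, and 2 higher thinned. PANETH against GOBLET had 1 and 22 by library size, 1 lower with TMM over all genes and DESeq2 size factors, and 2 lower thinned. EC and NON-EC against EEC-PRE had 3 higher with DESeq2 size factors and 3 thinned. TUFT against ISC had 1 and 5 with TMM over all genes and DESeq2 size factors, 5 and 1 by library size, 1 and 1 with no replicate block, and 4 lower with DESeq2. Paneth minus goblet maturation had 12 higher with TMM over all genes, 13 with DESeq2 size factors, 2 with no replicate block, 0 and 19 by library size, and 2 lower with no filter. EC against NON-EC, added after the data were seen, had 5 lower with no filter, 0 with no replicate block, 1 thinned and 1 with DESeq2.

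Unscaled, the summed CPM of members was 18012 in GP, 15939 in GOBLET-PRE, 14776 in SEC-PRO, 12035 in PANETH-PRE, 9846 in NON-EC, 8579 in ENTERO-PRO, 8093 in EC, 7096 in GOBLET, 7069 in TUFT, 6981 in EEC-PRE, 6317 in ISC and 3009 in PANETH. Thinned, it was 14579 in GOBLET-PRE, 14512.5 in GP, 11713 in SEC-PRO, 7224 in ENTERO-PRO and 5834 in EEC-PRE.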
